A study of Mus musculus with 13 samples.

Results

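The genes described here are 10 regulators of the G1 phase of the cell cycle: the cyclin-dependent kinase (CDK) inhibitors Cdkn1a, Cdkn1b, Cdkn1c, Cdkn2b and Cdkn2c, the D-type cyclins Ccnd1, Ccnd2 and Ccnd3, and the kinases Cdk4 and Cdk6. They were taken by symbol from a count table of 32544 gene symbols, and all 10 were among the 12496 genes with enough counts to be tested. Lungs of wild-type C57BL/6J male mice, bought at an age of 7 weeks, were perfused and frozen after 5 days at 21% oxygen (normoxia, 7 libraries) or at 80% oxygen (hyperoxia, 6 libraries). The RNA was sequenced with Quant-seq, which reads the 3′ ends of polyadenylated transcripts. No allele or drug differs between the groups, and the labels do not say that any lungs were pooled. The samples are labelled as separate samples of their group, and the p-values measure the spread between these samples only.

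A cell leaves G1 when D-type cyclins bind CDK4 or CDK6, and cyclin E binds CDK2, and these kinases phosphorylate RB proteins so that E2F factors can switch on the genes of DNA replication. The CIP/KIP inhibitors p21 (Cdkn1a), p27 (Cdkn1b) and p57 (Cdkn1c) bind cyclin-CDK pairs, and the INK4 inhibitors, among them p15 (Cdkn2b) and p18 (Cdkn2c), bind CDK4 and CDK6 before a cyclin does. In the lung p21 is well known as a gene that p53 switches on after oxidative or DNA damage. The comparison asks whether p21 rises alone among the CDK inhibitors in hyperoxia, and what the G1 cyclins and their kinases do.

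p21 (Cdkn1a) rose 29.1-fold, the most of any gene tested, but it did not rise alone among the inhibitors. Of the 5 inhibitors, 3 were higher in hyperoxia (Cdkn1a, Cdkn1c and Cdkn2b) and 2 were lower (Cdkn1b and Cdkn2c) at an adjusted p under 0.05 with edgeR's quasi-likelihood test. Over all genes tested, 11.8% were higher and 10.8% lower. When an absolute log2 fold change over 1.5 was required as well, Cdkn1a was the 1 inhibitor that was higher and Cdkn2c the 1 that was lower, where 1.55% and 2.35% of all genes passed in these directions. Among the 5 cyclins and kinases, Ccnd1, Ccnd2 and Cdk4 were higher, 0 were lower, and Ccnd3 and Cdk6 did not pass the test. Of these, Ccnd1 alone was also past 1.5. The calls of Ccnd2, Cdk4 and, among the inhibitors, Cdkn2b were lost in some of the other fits run, and with library size only, for example, 1 cyclin or kinase was higher. The groups did not overlap for 3 members that were higher (Cdkn1a, Cdkn1c and Ccnd1) and for 1 that was lower (Cdkn2c), against 5.6% and 5.23% of all genes.

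The libraries held between 1607111 and 3387736 counts in normoxia and between 2029006 and 4540288 in hyperoxia. One library, Hyperoxia 1, stood apart, with correlations of log2 CPM (CPM being the count scaled to the library total) of 0.72 to 0.83 with the other 12 libraries, which correlated at 0.85 to 0.97 among themselves. It is kept below, and values without it are given where it matters. All 8 listed markers of alveolar type II cells, all 8 of alveolar type I cells and all 8 of endothelium had enough counts to be tested. So had all 6 of cardiac muscle, so passing this filter does not by itself tell the tissue. In normoxia the summed levels were 15022 to 26183 CPM for alveolar type II cells and 78.8 to 263 CPM for cardiac muscle. A bulk sample cannot tell fewer cells of a type from less RNA per cell.

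**Figure D1:**
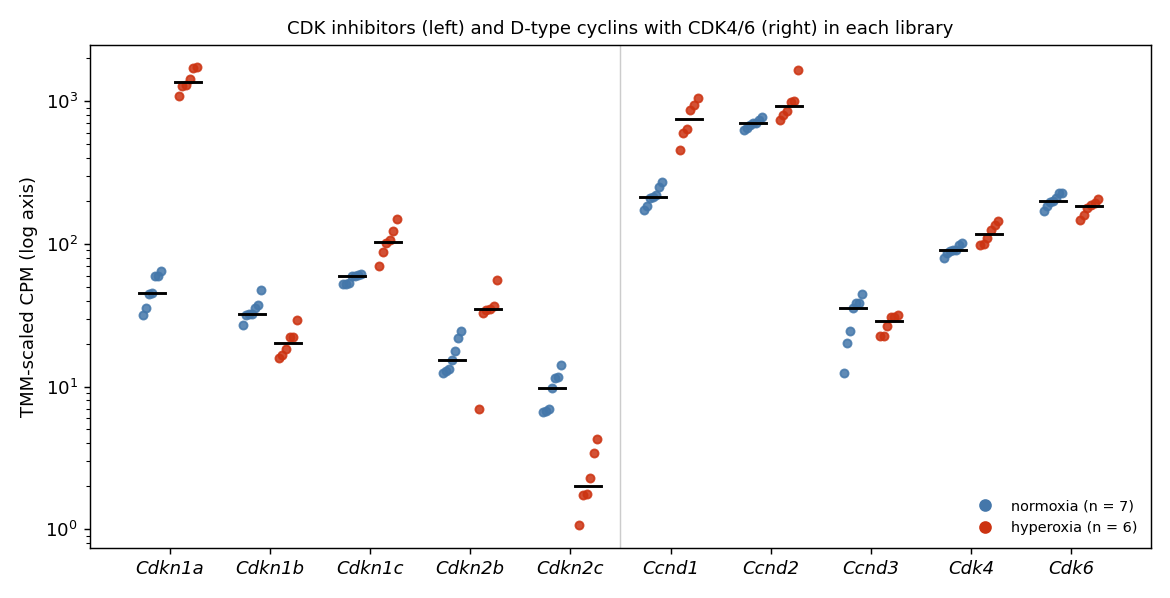
TMM-scaled CPM (log axis) of each of the 10 genes, with 1 point for each library, 7 normoxic in blue and 6 hyperoxic in red, and a bar at each group's median. Cdkn1a moves from between 31.9 and 64.3 CPM to between 1089 and 1728 CPM, Cdkn1b and Cdkn2c move down, and 1 hyperoxic library stands below its group for Cdkn2b and above it for Ccnd2.

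Cdkn1a lies at chr17:29090976-29100727 on the plus strand (GRCm38). Its RefSeq promoter windows (GRCm38.p6), each running from 250 bases before a transcript start to 50 after it, are shown because it is the gene with the highest log2 fold change, and that of Cdkn1b (chr6:134920401-134925513, plus strand) because it is the CIP/KIP gene that moved the other way. Capitals mark a p53 response element of 20 bases, allowing 1 mismatch outside its core, a TATA box (TATAA) and GC boxes (GGGCGG), each searched on both strands, and the marked motifs do not overlap.
Cdkn1a window 1, chr17:29090729-29091028, plus strand: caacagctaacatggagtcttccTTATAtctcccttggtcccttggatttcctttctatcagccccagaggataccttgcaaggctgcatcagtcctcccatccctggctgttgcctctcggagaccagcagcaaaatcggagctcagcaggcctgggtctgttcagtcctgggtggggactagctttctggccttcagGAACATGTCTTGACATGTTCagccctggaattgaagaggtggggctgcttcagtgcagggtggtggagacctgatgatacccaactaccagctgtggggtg
Cdkn1a window 2, chr17:29093519-29093818, plus strand: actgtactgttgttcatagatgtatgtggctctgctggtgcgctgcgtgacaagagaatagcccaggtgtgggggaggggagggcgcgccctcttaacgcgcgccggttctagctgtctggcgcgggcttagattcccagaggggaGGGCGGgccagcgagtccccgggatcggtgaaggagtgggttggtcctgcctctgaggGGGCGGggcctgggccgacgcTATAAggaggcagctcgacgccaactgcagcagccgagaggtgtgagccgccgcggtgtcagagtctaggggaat
Cdkn1b, chr6:134920151-134920450, plus strand: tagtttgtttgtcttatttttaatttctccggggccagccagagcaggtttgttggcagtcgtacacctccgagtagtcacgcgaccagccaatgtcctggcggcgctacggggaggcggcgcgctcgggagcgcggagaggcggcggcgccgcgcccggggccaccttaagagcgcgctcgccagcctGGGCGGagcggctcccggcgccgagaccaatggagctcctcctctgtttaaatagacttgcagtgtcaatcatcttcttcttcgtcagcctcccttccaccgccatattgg
Of the 10 members, 7 had a window in the RefSeq table, with 10 windows in all (Cdkn1c, Ccnd1 and Ccnd2 had none). The p53 element appears in window 1 of Cdkn1a, from 51 to 32 bases before that start and 2822 bases before the transcript start within window 2, and in none of the other 9 member windows. It was present in 22 of 32817 windows in the table (0.067%). The TATAA and 2 GC boxes of window 2 are common motifs, since 24.9% and 35.6% of all windows hold them, and Cdkn1b has 1 GC box. A cyclic AMP response element (TGACGTCA), present in 1.79% of windows, was found among the members only in that of Cdkn2b, 46 bases before its start. These matches describe letters in these windows, and binding was not measured here.

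Cdkn1a, the gene of p21, ranged from 31.9 to 64.3 CPM in normoxia (median 45.2) and from 1089 to 1728 CPM in hyperoxia (median 1371). Each hyperoxic library was far above each normoxic one. The means were 48.7 ± 12.8 CPM (SD, n = 7) and 1424 ± 255 CPM (SD, n = 6), and the difference fitted by edgeR was 29.1-fold. The log2 fold change of 4.86 (standard error 0.21, adjusted p = 1.1e-09, edgeR) was the highest of the 12496 genes tested. Its 95% interval, from 4.42 to 5.31, lay above that of Cdkn2b, the next highest inhibitor, which ended at 1.69. The fold change ran from 4.81 to 4.97 on the log2 scale when each library was left out in turn. The level of Trp53, the gene of p53, was 13.4 ± 2.14 CPM (SD, n = 7) under normoxia and 15.1 ± 4.82 CPM (SD, n = 6) under hyperoxia, and its log2 difference of 0.17 had a 95% interval from −0.31 to 0.65 (adjusted p = 0.641, edgeR). An annotated transcript model, AC167363.2, overlaps exons of Cdkn1a on the opposite strand, and whether the authors' counting used strand is not given in the sources used here.

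Cdkn1b, the gene of p27, ranged from 26.9 to 47.7 CPM in normoxia (median 32.5) and from 15.9 to 29.1 CPM in hyperoxia (median 20.2). The hyperoxic libraries were lower, and 5 of 6 lay below all normoxic ones, with Hyperoxia 6 at 29.1 CPM inside the normoxic range. Its log2 fold change was −0.74 (standard error 0.18, adjusted p = 0.0084, edgeR). Cdkn1c (chr7:143458339-143461050, minus strand), the imprinted gene of p57, ranged from 52.4 to 61.2 CPM (median 59.5) and from 69.7 to 148.5 CPM (median 103.8). All 6 hyperoxic libraries were above the 7 normoxic ones, which lay close together. The log2 fold change of Cdkn1c was 0.90 (standard error 0.16, adjusted p = 7.9e-04, edgeR). The antisense gene Gm44732 overlaps its exons.

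The makeup of the CIP/KIP counts changed with these levels. Cdkn1a held 25.6% to 44.4% of the counts of the 3 genes in normoxia (median 34.5%) and 90.1% to 94.2% in hyperoxia (median 90.8%). Cdkn1b and Cdkn1c together ranged from 80.4 to 100.1 CPM in normoxia and from 91.9 to 178 CPM in hyperoxia, with 5 of 6 hyperoxic libraries above all normoxic ones.

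**Figure D2:**
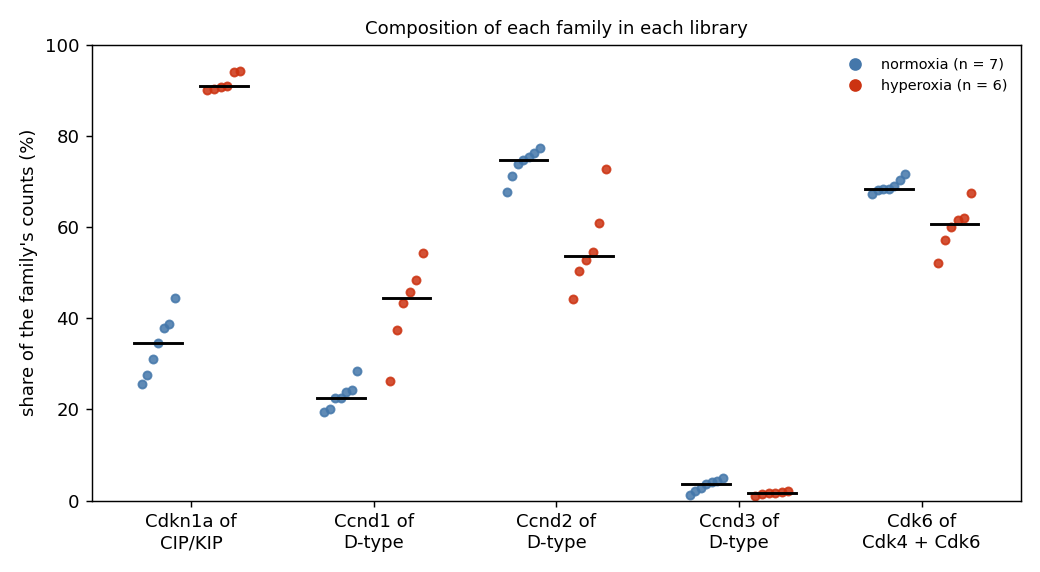
Share of each family's counts (%) held by Cdkn1a among the 3 CIP/KIP genes, by each D-type cyclin among the 3, and by Cdk6 among Cdk4 and Cdk6, with 1 point for each library and a bar at each group's median. The share of Cdkn1a lies between 90.1% and 94.2% in the 6 hyperoxic libraries, and the Ccnd1 share rises in all but 1 of them above the normoxic range, which ends at 28.4%.

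The INK4 inhibitors moved in opposite directions. Cdkn2b (chr4:89306299-89311039, minus strand), the gene of p15 and known as a target of TGF-beta signalling, ranged from 12.4 to 24.6 CPM in normoxia (median 15.4) and from 6.97 to 55.9 CPM in hyperoxia (median 34.8). All but 1 of the hyperoxic libraries were above the normoxic range, and the exception, Hyperoxia 1, was below it. The log2 fold change of Cdkn2b was 1.01 (standard error 0.32, adjusted p = 0.0326, edgeR), and 1.23 without Hyperoxia 1 (adjusted p = 3.2e-04). The call was lost when Hyperoxia 3 (0.83) or Hyperoxia 4 (0.99) was left out, and likewise without Normoxia 3 (1.01), 4 (0.97), 6 (0.97) or 7 (0.96), with adjusted p of 0.0508 to 0.0689.

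Cdkn2c (chr4:109660876-109667189, minus strand), the gene of p18, ranged from 6.64 to 14.1 CPM in normoxia (median 9.81) and from 1.07 to 4.31 CPM in hyperoxia (median 2.01). Every hyperoxic library was below every normoxic one. These levels rest on few counts, from 2 in Hyperoxia 1 to 16 in Hyperoxia 4, against 19 to 35 in normoxia. The log2 fold change of Cdkn2c was −1.91 (standard error 0.33, adjusted p = 6.5e-04, edgeR). In GENCODE M21 no gene overlaps Cdkn1b, Cdkn2b or Cdkn2c on the opposite strand.

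The remaining INK4 genes gave less. Cdkn2a, which encodes p16 and ARF, had 0 counts in 12 libraries and 1 count in Hyperoxia 3, so that a difference was not detectable at this depth. Cdkn2d, the gene of p19, ranged from 2.51 to 26.9 CPM in normoxia and from 0 to 10.3 CPM in hyperoxia, and its log2 difference of −0.88 did not pass the test (adjusted p = 0.318, edgeR).

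Some markers of several cell types were lower in hyperoxia, as Cdkn1b and Cdkn2c were, and their counts are read against the 11.8% of all genes that were higher and the 10.8% that were lower. All 6 B cell markers tested, of 8 listed, were lower in hyperoxia, and their sum moved from between 168 and 234 CPM to between 37.9 and 84.7 CPM. Of the 4 T and NK cell markers tested, of 8, 3 were lower, with a sum of 35.3 to 62.5 CPM against 9.73 to 32.7 CPM. Of the 8 alveolar macrophage markers 0 were higher and 5 lower, with a sum of 215 to 350.2 CPM against 42.9 to 564 CPM and a higher median in hyperoxia (368 against 295 CPM). Of the 6 cardiac muscle markers 0 were higher and 3 lower, with a sum of 78.8 to 263 CPM against 4.83 to 293 CPM. Hyperoxia 1 was the lowest library for both sums. None of these markers was at 0 in all libraries. The part of these cell types in the lower Cdkn1b and Cdkn2c was not tested. The summed levels of 4 epithelial marker lists separated the groups, as did those of B cells and of T and NK cells. Of the 4, those of alveolar type II and of club and ciliated cells were lower in hyperoxia and the others higher. Of the 8 alveolar type II markers 7 were lower, with a sum of 15022 to 26183 CPM against 4507 to 8324 CPM, and of the 7 markers of damage-associated transitional epithelium that were tested, of 8, 5 were higher, with a sum of 690 to 1038 CPM against 1931 to 3020 CPM. Of the 8 alveolar type I markers 1 was higher and 1 lower, with a sum of 3910 to 4391 CPM against 4859 to 5746 CPM, in which Akap5, the higher one, went from a mean of 1194 to 2734 CPM. Of the 6 club and ciliated cell markers 0 were higher and 2 lower, with a sum of 14213 to 52483 CPM against 248 to 9958 CPM, lowest in Hyperoxia 1. Without Hyperoxia 1, 8 of 8 transitional markers tested were higher, and 4 of 4 T and NK cell markers and 3 of 6 club and ciliated cell markers were lower. Of the alveolar macrophage markers 2 were higher and 4 lower. The counts of the B cell, cardiac muscle, alveolar type I and alveolar type II lists did not change. The part of the epithelium in the higher Cdkn1a and Ccnd1 was not tested. In the remaining lists, with all libraries, endothelium (8 tested) and monocytes and recruited macrophages (8 tested) each had 1 higher and 2 lower. Fibroblasts and mesenchyme (7 tested) had 2 higher and 2 lower, and smooth muscle and pericytes (6 tested) 2 and 0. Mesothelium (3 tested) and erythroid cells (4 tested) each had 0 higher and 1 lower, and neutrophils (5 tested) 0 and 0.

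Among the D-type cyclins, Ccnd1 changed most and Ccnd2 less, and Ccnd3 did not pass the test. Ccnd1 (chr7:144929931-144939925, minus strand), the gene of cyclin D1, which growth factors induce, ranged from 172 to 273 CPM in normoxia (median 214) and from 453 to 1055 CPM in hyperoxia (median 755). The groups were well apart. The means were 218 ± 35.2 CPM (SD, n = 7) and 760 ± 233 CPM (SD, n = 6), and the log2 fold change of 1.80 (standard error 0.19, adjusted p = 1.1e-05, edgeR) ranked 123 from the top among all genes tested.

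The counts of Ccnd1 may hold reads of a neighbour, since the exons of Oraov1 (LTO1 in the annotation, chr7:144915100-144931701, plus strand) cover 1100 exonic bases of Ccnd1 on the other strand, up to its last base at the 3′ end. Oraov1, which encodes a factor of iron-sulfur protein maturation, ranged from 290.4 to 379.5 CPM in normoxia (median 310.2) and from 789 to 1453 CPM in hyperoxia (median 1232). The groups did not overlap, and the log2 fold change of Oraov1 was 1.89 (standard error 0.16, adjusted p = 1.1e-06, edgeR). The count of Oraov1 was 1.14 to 1.77 times that of Ccnd1 in normoxia and 1.27 to 2.44 times in hyperoxia. With the counts of both genes summed as 1 feature, an alternative chosen after seeing the data, the log2 fold change was 1.85 (standard error 0.16, adjusted p = 1.5e-06). Without knowing that strand was used, the reads of the pair cannot be told apart, and the rise of Ccnd1 cannot be separated from that of Oraov1.

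**Figure D3:**
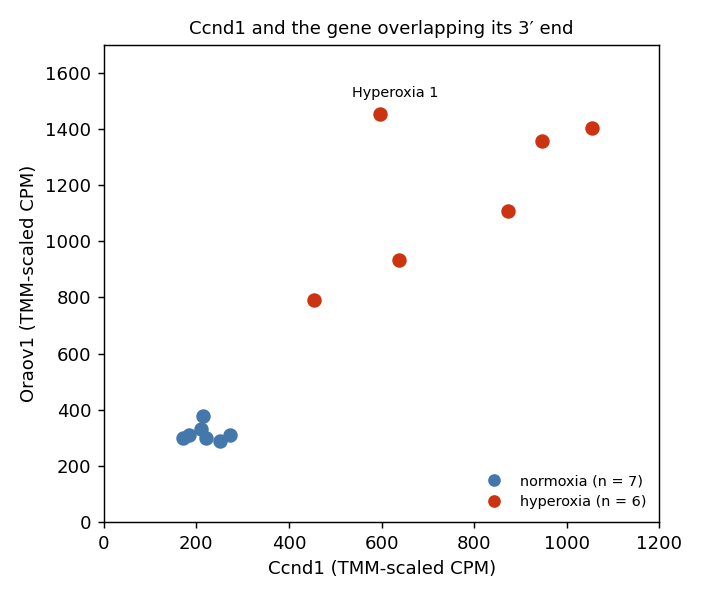
TMM-scaled CPM of Oraov1 (vertical axis) against that of Ccnd1 (horizontal axis), with 1 point for each of the 7 normoxic (blue) and 6 hyperoxic (red) libraries. The normoxic libraries lie together at up to 379.5 CPM of Oraov1, the hyperoxic ones lie between 789 and 1453 CPM, and Hyperoxia 1 has more Oraov1 for its Ccnd1 than the others.

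Ccnd2 (chr6:127125162-127152193, minus strand), the gene of cyclin D2, ranged from 634 to 775 CPM in normoxia (median 704) and from 738 to 1648 CPM in hyperoxia (median 922). All but Hyperoxia 3, at 738 CPM, were above the normoxic range, and Hyperoxia 1 was far above the next highest library at 1007 CPM. The log2 fold change of Ccnd2 was 0.53 (standard error 0.17, adjusted p = 0.0368, edgeR) and fell to 0.35 without Hyperoxia 1 (adjusted p = 0.0276), so that this 1 library moved the value by over 1.5 times. The call was lost without Normoxia 1 (0.54), 2 (0.56), 3 (0.54), 4 (0.56), 5 (0.55) or 7 (0.56) and without Hyperoxia 5 (0.56) or 6 (0.56), at adjusted p of 0.0574 to 0.0698. The antisense genes Gm43126 and 9330179D12Rik overlap its exons.

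Ccnd3 (chr17:47505051-47599691, plus strand), the gene of cyclin D3, ranged from 12.5 to 44.4 CPM in normoxia (median 35.6) and from 22.5 to 31.7 CPM in hyperoxia (median 28.8), inside the normoxic range. Its log2 difference of −0.14 had a 95% interval from −0.67 to 0.39 (adjusted p = 0.741, edgeR), and its sign depended on the fit. The 3′ end of Ccnd3 lies within exons of Bysl, whose counts were 5.08 to 12.8 times as many in normoxia and 7.05 to 26.9 times in hyperoxia. Summed with Bysl, Ccnd3 had a log2 difference of 0.52 (adjusted p = 0.118).

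In CPM summed over the 3 genes, the D-type cyclins ranged from 889 to 1039 in normoxia and from 1214 to 2267 in hyperoxia, without overlap. Within that sum the share of Ccnd1 counts ranged from 19.4% to 28.4% in normoxia (median 22.6%) and from 26.3% to 54.3% in hyperoxia (median 44.5%), and that of Ccnd2 from 67.6% to 77.3% (median 74.6%) and from 44.2% to 72.7% (median 53.6%). Hyperoxia 1 was the library that stayed in the normoxic range for both shares. With Oraov1 counted to Ccnd1, the share of the pair was 39.7% to 45.9% in normoxia and 55.1% to 73.4% in hyperoxia, without overlap.

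Of their kinase partners, Cdk4 was higher and Cdk6 did not pass the test. Cdk4 (chr10:127063534-127067920, plus strand) ranged from 79.2 to 101.7 CPM in normoxia (median 90.9) and from 98.6 to 146 CPM in hyperoxia (median 117), with 4 of 6 hyperoxic libraries above the normoxic range. Its log2 fold change was 0.39 (standard error 0.13, adjusted p = 0.0381, edgeR). The call was lost without Normoxia 1 (0.39), 2 (0.41), 3 (0.41), 4 (0.42), 6 (0.41) or 7 (0.43) and without Hyperoxia 4 (0.37) or 5 (0.34), at adjusted p of 0.0513 to 0.0989. Tspan31, whose exons overlap the 3′ end of Cdk4, gave at most 0.124 times the counts of Cdk4 in any library, and the sum of both had a log2 fold change of 0.38 (adjusted p = 0.0401).

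Cdk6 (chr5:3341485-3531008, plus strand) ranged from 171 to 229 CPM in normoxia (median 201) and from 148 to 205 CPM in hyperoxia (median 184). The groups overlapped, with 2 hyperoxic libraries below the normoxic range. Its log2 difference of −0.18 had a 95% interval from −0.44 to 0.08 (adjusted p = 0.321, edgeR). The antisense gene Gm17590 overlaps its exons. The sum of both kinases was 250.5 to 328 CPM in normoxia and 259 to 340.4 CPM in hyperoxia, while the share of Cdk6 in their counts was 67.2% to 71.6% (median 68.4%) and 52.0% to 67.5% (median 60.7%), with 5 of 6 hyperoxic libraries below the normoxic range.

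**Figure D4:**
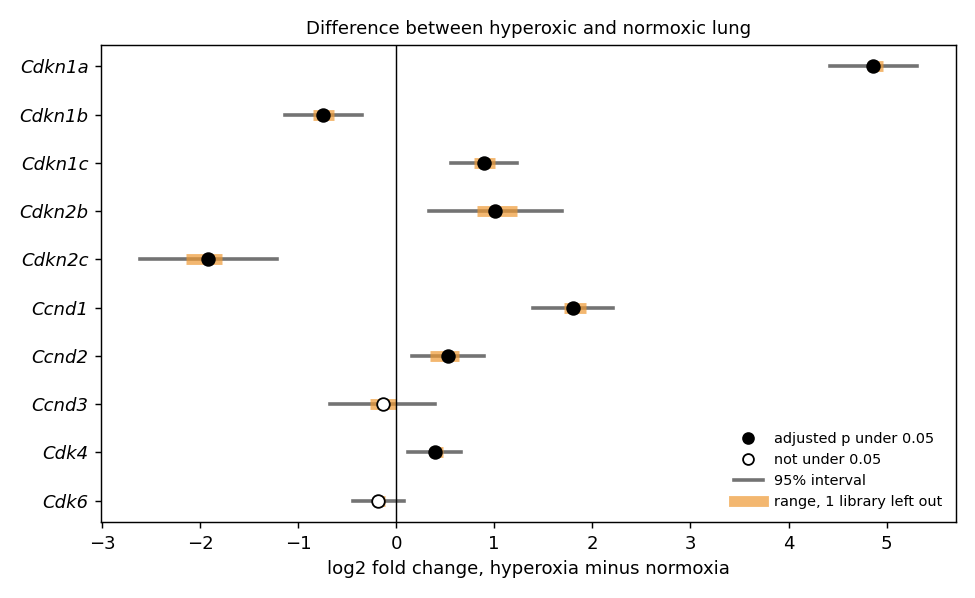
log2 fold change (hyperoxia minus normoxia, edgeR) of the 10 genes, with its 95% interval (grey) and the range when each of the 13 libraries is left out in turn (orange). Filled points have an adjusted p under 0.05. Cdkn1a stands at 4.86, Ccnd1 at 1.80 and Cdkn2c at −1.91, and the intervals of Ccnd3 and Cdk6 include 0.

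By the letter in their names the libraries form a set B to M, with 5 normoxic and 3 hyperoxic ones, and a set O to S, with 2 and 3. What the letters stand for is not given in the sources used here. Within these sets the difference in mean log2 CPM was 4.86 and 4.81 for Cdkn1a, −0.88 and −0.78 for Cdkn1b, 0.84 and 0.86 for Cdkn1c, 0.42 and 1.36 for Cdkn2b, and −2.17 and −1.29 for Cdkn2c. For the cyclins it was 1.66 and 1.77 for Ccnd1, 0.59 and 0.29 for Ccnd2, and −0.50 and 0.87 for Ccnd3. Cdk4 gave 0.31 and 0.41 and Cdk6 gave −0.05 and −0.37. Thus 9 of the 10 members kept their direction in both sets, and Ccnd3 did not. Within set B to M, Cdkn1b and Ccnd2 also separated the groups. Within set O to S every member did, Ccnd3 and Cdk6 among them, so separation of 2 from 3 libraries says little. The share of all genes that separated within a set was not counted.

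The genes whose profile over the 13 libraries was most like that of Cdkn1a were Procr, Spink5 and Eda2r, by the mean absolute difference between log2 CPM profiles, each centred on its own mean. For Procr, which encodes the endothelial protein C receptor, this difference was 0.597, and its level moved from between 1.78 and 7.52 CPM to between 52.8 and 114.9 CPM. For Spink5, which encodes a serine protease inhibitor, it was 0.613, and the levels were 31.5 to 72.0 CPM and 344 to 1173 CPM. For Eda2r, a receptor of the tumour necrosis factor receptor family, it was 0.638, with 0 to 3.03 CPM and 15.9 to 35.4 CPM. All 3 separated the groups, which follows from choosing them by likeness to Cdkn1a. Their log2 fold changes ranked 3, 7 and 2 from the top. Among the members, Ccnd1 came nearest, at rank 93 of 12495 genes.

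For genes around the members, counts are read against the 11.8% of all genes tested that were higher and the 10.8% that were lower, with 9677 of 12496 neither. Of the 4 tested genes of cyclins E and A and their kinases, 1 was higher and 0 lower, with a median log2 fold change of −0.39, where that of all genes was −0.03. This was Ccna2, the gene of cyclin A2, which moved from 24.4 ± 7.03 CPM to 41.5 ± 18.2 CPM (0.78, adjusted p = 0.036, edgeR). Ccne2 (−0.53, adjusted p = 0.201) and Cdk2 (−0.24, adjusted p = 0.648) did not pass, and Ccne1, with 1 to 7 counts, was not tested. Of 12 RB and E2F genes, 0 were higher and 1 was lower (median −0.30), near the 10.8% of all genes. E2f2 was the lower one, at 57.0 ± 10.4 CPM and 33.6 ± 13.5 CPM (−0.77, adjusted p = 0.0199), and Rb1, the gene of RB itself, gave 0.06 (adjusted p = 0.881) with a 95% interval from −0.44 to 0.57. The 5 genes of the DREAM and MuvB core, which represses or activates cell cycle genes depending on its partners, gave 0 in either direction (median −0.32).

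The E2F target genes of S phase, such as those of the MCM helicase, were tested for 26 of 34 genes. Of these 1 was higher and 0 were lower (median −0.10). The higher one, Rfc5, a subunit of the clamp loader, moved from 92.7 ± 19.1 CPM to 162 ± 53.8 CPM (0.80, adjusted p = 0.0096, edgeR). Of 14 proliferation markers tested, 0 were higher and 2 lower, with a median of −0.46, beside 11.8% higher and 10.8% lower over all genes. Cenpa, the centromeric histone, moved from 18.5 ± 2.34 CPM to 8.52 ± 1.58 CPM (−1.13, adjusted p = 4.2e-04) without overlap, and Nusap1, a spindle protein, from 13.6 ± 3.36 CPM to 6.72 ± 2.17 CPM (−1.01, adjusted p = 0.0101). All 14 had log2 differences below 0, but only these 2 passed the test. Over all 12496 genes tested, 5970 had log2 differences above 0.

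Genes that act on the CDKs and on the proteins of the members were followed in the same way. Of 7 genes of CDK activation, 2 were higher and 1 lower (median 0.34), beside 11.8% and 10.8% of all genes. Wee1, the kinase that inhibits CDKs, rose from 11.0 ± 3.37 CPM to 29.4 ± 13.9 CPM (1.42, adjusted p = 0.0019, edgeR), and Mnat1, a partner of the CDK-activating kinase, from 66.2 ± 12.6 CPM to 121 ± 30.3 CPM (0.86, adjusted p = 0.0022). Cdc25b, a phosphatase that activates CDKs, fell from 8.82 ± 2.74 CPM to 3.80 ± 1.89 CPM (−1.16, adjusted p = 0.0175). None of these 3 overlapped between groups. Of 17 tested genes for the turnover of p21, p27 and the D-type cyclins, 4 were higher and 0 lower (median 0.18), beside the same shares of all genes. Those with the smallest adjusted p were Dyrk1a (0.60, adjusted p = 0.0069), a kinase that marks cyclin D1 for degradation, Cul1 (0.58, adjusted p = 0.007), the scaffold of SCF ubiquitin ligases, and Fbxo31 (0.77, adjusted p = 0.011), a substrate receptor.

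Of 28 tested transcription factors and chromatin regulators known to act on the members, 7 were higher and 2 lower (median 0.16), where 11.8% of all genes were higher and 10.8% lower. Klf6, a zinc finger factor that can raise p21, moved from 442 ± 58.4 CPM to 912 ± 235 CPM (1.05, adjusted p = 2.7e-04, edgeR) without overlap. Fos, a subunit of AP-1, moved from 16.6 ± 8.59 CPM to 63.8 ± 34.1 CPM (1.93, adjusted p = 0.0021). Tcf7l2, a factor of the Wnt pathway, was lower, at 104.6 ± 6.38 CPM and 73.2 ± 9.19 CPM (−0.52, adjusted p = 0.0049). Without Hyperoxia 1, an alternative chosen after seeing the data, the counts of higher and lower genes were 9 and 3 for these regulators, 5 and 0 for turnover, 3 and 1 for CDK activation, 1 and 1 for the E2F targets, 0 and 2 for the RB and E2F genes, 0 and 2 for the proliferation markers, 1 and 0 for cyclins E and A and 0 and 0 for the DREAM core, while over the whole table they rose to 1934 and 1699.

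**Figure D5:**
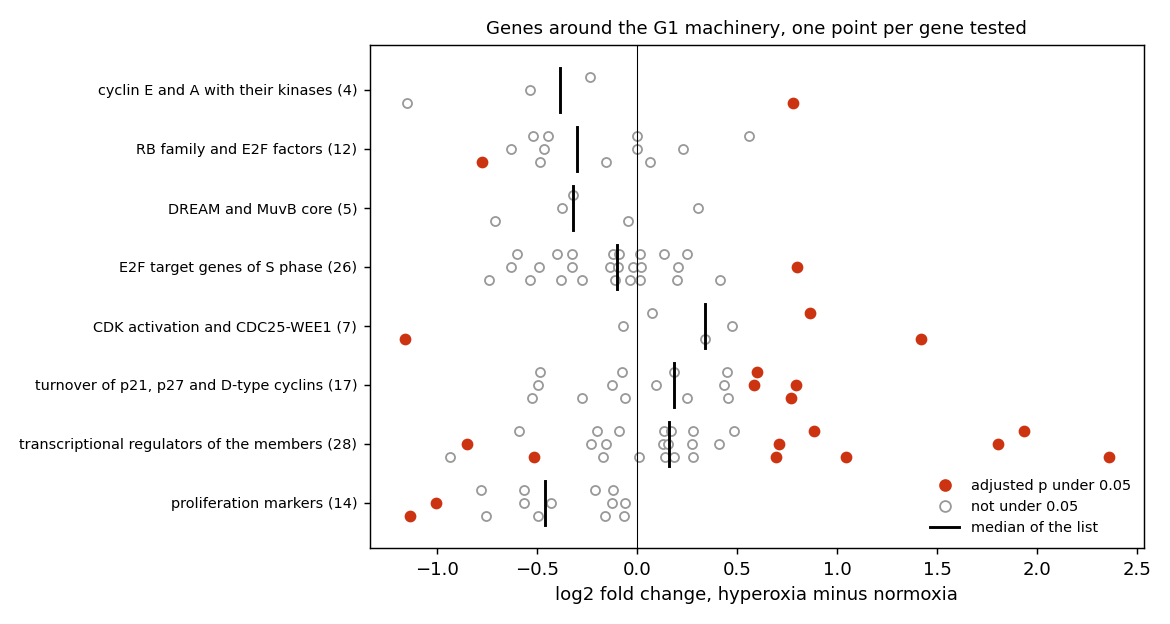
log2 fold change (hyperoxia minus normoxia, edgeR) of each tested gene in 8 lists around the G1 machinery, with the number tested in brackets, filled points for an adjusted p under 0.05 and a bar at each median. The medians run from −0.46 for the proliferation markers to 0.34 for CDK activation, and the regulators of the members hold the points farthest to the right.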

How the data were processed

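Quant-seq libraries (Lexogen 3′ kit) of 7 normoxic and 6 hyperoxic mouse lungs were analysed. For 32544 gene symbols the authors deposited raw counts, obtained with kallisto through BioJupies. The submitters' processing notes list mm10, kallisto and limma 3.54.2; the annotation and the use of strand are not given in the sources used here. The deposited log10 values are log10(CPM + 1) over total counts, which recomputation from the counts gave to within 4.4e-16. All columns belong to these samples, and 0 were unmapped.

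Counts were tested with edgeR 4.0.16 in R 4.3.3 (TMM, filterByExpr, glmQLFit, glmQLFTest, no covariate, Benjamini-Hochberg over 12496 genes, threshold 0.05). The fit was also run on simulated counts. There all genes had the same dispersion, lower than the common dispersion of these data (0.1057), and no library stood apart. That run checked the code and does not give the error rate of the calls here. Levels are TMM-scaled CPM, profiles are log2 CPM with a prior count of 2, and the second threshold of 1.5 is on the log2 scale. Intervals are 95% intervals of the edgeR fit. Depth sets the precision of low genes, and 3 counts were taken as the floor. The members, lists and markers were chosen with earlier results of these data known. Genes named are the members, Cdkn2a, Cdkn2d, Trp53, Rb1, Ccne1, Ccne2 and Cdk2, up to 3 genes of each list with the smallest adjusted p under 0.05, and the 3 profiles most like that of Cdkn1a; the genes that overlap members were named after their values were seen.

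Alternatives were DESeq2 1.42.0, library size only, limma-voom and limma on the deposited log10 values (limma 3.58.1), no filter, a replicate block, a term for the letter set, each library left out, and the threshold of 1.5. Leaving out Hyperoxia 1 for the lists, and summing overlapping genes, were added after the data were seen. Replicates of a group differed by more than sampling noise in all 36 pairs (chi-square per gene of at least 3.79). Coordinates are from GENCODE M21 (GRCm38) and promoters from RefSeq (GRCm38.p6).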

Additional observations from a re-analysis of the deposited data

Results flagged for a closer look

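Hyperoxia 1 was far from the rest of its group for Ccnd2, with 1648 CPM where the next highest hyperoxic library had 1007 CPM, and the gap was 0.704 of the range of the group. It was the 1 such case among 30 groups examined (15 genes in each condition), and chance alone marks about 1 group in 20. Why Ccnd2 was so high in this library was not tested.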

How the results depend on the processing

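Of 203 log2 fold changes of the members under other settings, 167 kept their direction and their side of the threshold, 33 were no longer past it and 3 reversed. Cdkn1a, Cdkn1b, Cdkn1c, Cdkn2c and Ccnd1 kept their call at an adjusted p under 0.05 in every fit run, and Cdk6 stayed without one. With the 1.5 threshold added, Cdkn1b (−0.74) and Cdkn1c (0.90) lost theirs. All 3 reversals were of Ccnd3, at 0.016 with limma-voom, 0.018 with the letter set and 0.52 when summed with Bysl, which holds most of that sum. Cdkn2b was not past the threshold with limma-voom (0.94, adjusted p = 0.0758) or limma on the deposited values (0.72, adjusted p = 0.169). Ccnd2 was not with library size only (0.45, adjusted p = 0.0683) or limma on the deposited values (0.40, adjusted p = 0.0887), nor was Cdk4 (0.32, adjusted p = 0.0984, and 0.30, adjusted p = 0.0998), which also missed it without a filter (0.44, adjusted p = 0.0526) and with the letter set (0.36, adjusted p = 0.0568). The cause was not tested. With 1 library left out, the range was 0.83 to 1.23 for Cdkn2b, 0.35 to 0.64 for Ccnd2 and 0.34 to 0.47 for Cdk4.

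Of the cyclins and kinases, 1 and not 3 was higher with library size only, with limma on the deposited values and with the 1.5 threshold, and 1 to 3 with 1 library left out, with 1 without Normoxia 1, 2, 3, 4 or 7 or Hyperoxia 5. Of the inhibitors, 1 was higher and 1 lower with the 1.5 threshold, which left 194 genes higher and 294 lower over the whole table. The split of all calls, 1473 higher and 1346 lower, was 1179 and 1579 with library size only and 1097 and 1729 with limma on the deposited values, where the median of all genes was −0.10 and −0.16 in place of −0.03. Relative to these medians the directions of the members other than Ccnd3 did not change.

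The replicate numbers share no stated source, and the deviations of same-numbered libraries correlated at −0.33 to 0.27, with 1 of 6 pairs over 0.1 and 0 hyperoxic libraries closest to their own number. With the replicate block, 718 genes were higher and 626 lower, 1 cyclin or kinase was higher, and Cdkn2b (0.85, adjusted p = 0.243), Ccnd2 (0.49, adjusted p = 0.156) and Cdk4 (0.40, adjusted p = 0.12) were not past the threshold. Depth limits Cdkn2c, Cdkn2a, Ccne1 and Cdk2, which had 35 counts or fewer in every library.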

Other observations

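In Hyperoxia 1 the genes that overlap the 3′ ends of Ccnd1 and Ccnd3 held more counts relative to these members than in any other library. The count of Oraov1 was 2.44 times that of Ccnd1 there, against 1.14 to 1.77 times in the other 12 libraries, and the count of Bysl was 26.9 times that of Ccnd3, against 5.08 to 12.8 times. Tspan31 had 0.124 times the counts of Cdk4 in Hyperoxia 1, where the other libraries had 0.0128 to 0.0943 times.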
